A study of Mus musculus with 16 samples.

Results

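The transcriptome of the wild-type (WT) mandibular first molar germ at E14.5 was described from 8 of the 16 arrays of a mouse study of Rsk2, the X-linked kinase gene mutated in Coffin-Lowry syndrome. Members were all samples whose genotype label read wildtype, and no test between genotypes was made. Values of the 8 Rsk2-/Y arrays are given in places beside those of WT. Each WT sample was total RNA from a pool of 4 tooth germs of C57Bl6 embryos, which the study's methods describe as coming from a pair of embryos, and those methods name Rsk2+/Y male littermates as the controls of its mutants. No other allele or agent was given to either group. The pools carried 2 kinds of code in their titles, ABH (ABH_11A, ABH_12A, ABH_13A and ABH_25A) and AZN (AZN_MolairesWT1, AZN_MolairesWT2, AZN_MolairesWT3 and AZN_MolairesWT), 4 pools of each. What these title codes stand for was not stated, and they are called series here. The arrays were Affymetrix whole-transcript mouse gene arrays, and values were deposited as log2 signals after RMA, so that 1 unit is a 2-fold difference in signal.

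At E14.5 the molar germ is at the cap stage. An epithelial enamel organ folds over a condensed papilla of neural crest-derived mesenchyme, and a transient signalling centre in the epithelium, the primary enamel knot, secretes ligands of the hedgehog, FGF, BMP and WNT families that direct growth of the cusps. The cells that will make enamel (ameloblasts) and dentin (odontoblasts) have not yet differentiated. A dissected germ can also hold blood, vessels, nerve, and pieces of the neighbouring oral epithelium, bone and muscle.

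The array held 35556 probe sets, and 21789 of them were paired with exactly 1 gene symbol, covering 19938 genes. Correlations between WT pools lay between 0.981 and 0.996, array medians between 6.74 and 6.92, and no pair of pools had identical values. Of genes on the Y chromosome, Uty, Kdm5d and Eif2s3y lay between 8.29 and 9.15 in all 8 pools. Xist, the transcript of the inactive X chromosome in female cells, lay between 5.17 and 5.38 in 6 pools, at 6.14 in ABH_13A and at 6.68 in AZN_MolairesWT1. The pools ABH_13A and AZN_MolairesWT2 stood apart in the results that follow, and values without each of them are given where they change a result. All lists of genes used below were chosen with earlier results of these data known.

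Signals were divided into a high band (mean of the 8 pools of 10 or more), a medium band (5 to under 10) and a background band (under 5). The limit of 5 is the filter of the study's methods, and the 20th percentile of all deposited values was 4.79. Of the 21789 probe sets with 1 symbol, 2476 (11.4%) were high, 15796 (72.5%) were medium and 3517 (16.1%) were at background. Taken as 1 probe set for each gene, the one with the highest mean, 2115 of 19938 genes (10.6%) were high and 3250 (16.3%) were at background. Under 5 in all 8 pools were 3091 probe sets, and 895 more were under 5 in some pools only. At 10 or above in all 8 pools were 1976 probe sets, with 1054 more at that level in some pools. The bands have no natural edge. Phip (10.0005 ± 0.07) and Ccn2 (10.0007 ± 0.20) lay just inside the high band and Cdc37 (9.9996 ± 0.14) and Tmem30a (9.9989 ± 0.10) just outside, while Ms4a12 (5.00001 ± 0.12) and Asb9 (4.9992 ± 0.09) lay on either side of the background limit (SD, n = 8 for each). Probe sets differ in how well they hybridise, so a rank orders signals and not numbers of transcripts. Of 999 symbols with more than 1 probe set, 204 had probe sets whose means differed by more than 2 log2 units.

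The 50 genes of highest signal, each read from its highest probe set, included 14 ribosomal protein, 5 housekeeping and 2 histone genes. Rplp0 is counted both as a ribosomal protein and as a housekeeping gene. Rn7sk, the 7SK RNA that holds back the transcription elongation factor P-TEFb, had the highest mean (13.66 ± 0.10, SD, n = 8). Eef1a1, the translation elongation factor, followed at 13.46 ± 0.07 and Actb, cytoplasmic beta-actin, at 13.44 ± 0.05. Rpph1, the RNA of ribonuclease P, lay at 13.30 ± 0.36, the widest spread among the first 10. The others of the first 10 were Txn1 (thioredoxin, 13.27), the histone gene H4c4 (13.16), the imprinted growth factor Igf2 (13.13) and the ribosomal protein genes Rplp0 (13.05) and Rpl10 (13.05), together with a probe set of Baiap2l1 at 13.56. Baiap2l1, an adaptor between membrane and actin, had other probe sets at 11.44 and 7.74, so its place in the order rests on 1 probe set of 3. Rn7sk and Rplp0, with 2 probe sets each, and Rpl10, with 6, were likewise placed by the highest alone. Of all 217 ribosomal protein probe sets 198 (91.2%) were high. Many of these genes have near-identical copies, and the array cannot separate them.

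Receptors of the sense organs filled the low end. Of 1035 olfactory receptor probe sets 844 (81.5%) were at background and none was high. The highest, Olfr1174, had a mean of 9.005 ± 0.23. Of 170 vomeronasal receptor probe sets 167 were at background, as were 32 of 38 taste receptor probe sets. The 37 Hox genes, which pattern the trunk and are silent in the first pharyngeal arch, lay between 4.33 (Hoxa5) and 7.03 (Hoxb1). None was high, beside 10.6% of all genes, and 30 of the 37 were nevertheless above the limit of 5. Of 14 genes of other organs or later stages 3 were at background, beside 16.3% of all genes, and 11 were in the medium band, with the highest, the sperm protamine gene Prm2, at 6.85 ± 0.14.

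**Figure D1:**
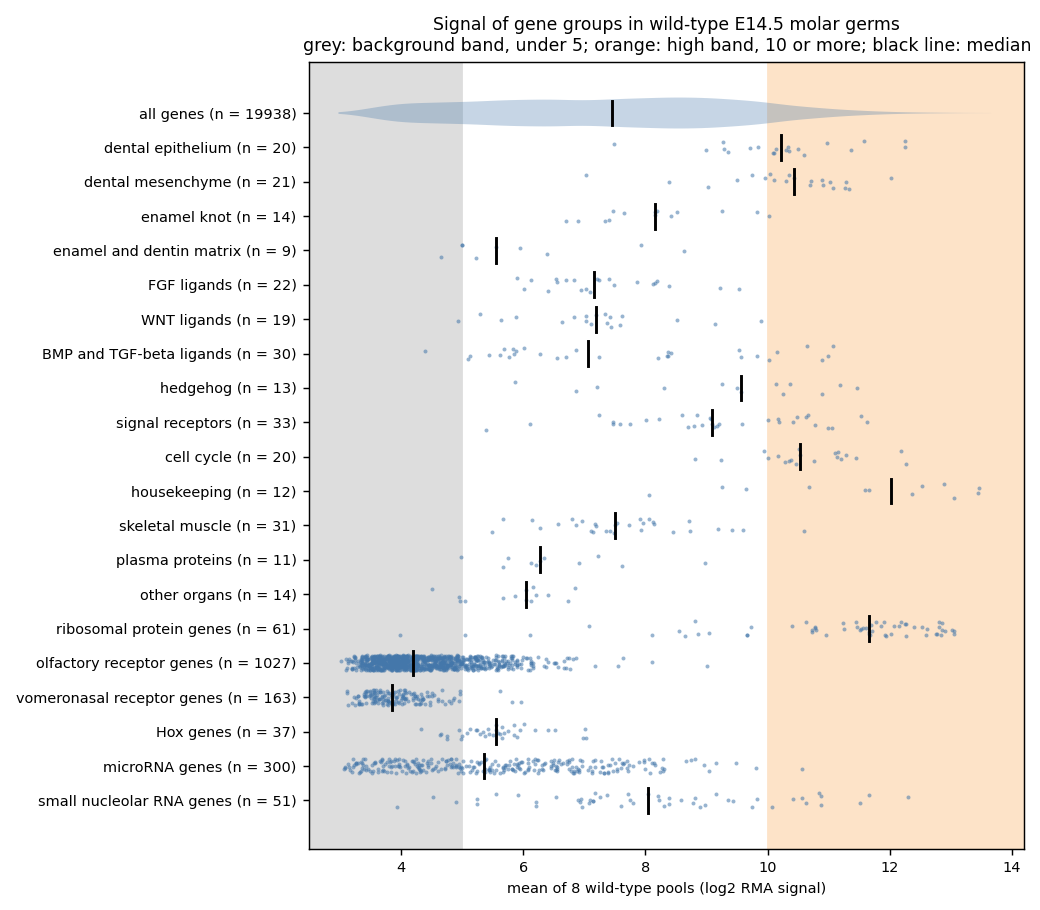
Mean log2 RMA signal over the 8 WT pools (x axis) for each gene of the named lists and families, 1 point per gene and 1 probe set per gene, with all genes as a violin at the top and medians as black lines. Dental epithelium and dental mesenchyme have medians of 10.22 and 10.43, both in the orange high band, whereas most olfactory and vomeronasal receptor genes lie in the grey background band.

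Markers of both tissues of the tooth germ were strongly represented. Of 20 epithelial genes analysed 13 were high and none was at background. Krt17 (12.24 ± 0.44) and Krt5 (12.24 ± 0.19), keratins of basal epithelial cells, were highest, followed by Krt14 (11.58 ± 0.24), the desmosome genes Dsp (11.36 ± 0.19) and Dsc3 (10.96 ± 0.42) and the claudin Cldn6 (10.60 ± 0.25). The epithelial master regulator Trp63 had a mean of 10.49 ± 0.25, and Foxi3, a target of ectodysplasin signalling in placodes, 10.29 ± 0.77. At the low end of the list was the claudin Cldn7 (7.49 ± 0.09).

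Of 21 mesenchymal genes 15 were high and none was at background. The homeobox gene Prrx1 was highest (12.02 ± 0.07, with pools between 11.92 and 12.11). Osr2, which limits the tooth field to a single row, lay at 11.33 ± 0.23, Barx1, the homeobox gene of the molar field, at 11.28 ± 0.11, Pdgfra, a receptor of mesenchymal cells, at 11.26 ± 0.09, and Pax9 at 10.91 ± 0.11. Msx1, the homeobox gene without which teeth stop at the bud stage, had a mean of 10.43 ± 0.17. The secreted signals Bmp4 (11.07 ± 0.37) and Inhba (10.89 ± 0.60), the activin subunit, were also high. Fgf10 (8.38 ± 0.14) and Fgf3 (7.03 ± 0.50), mesenchymal signals back to the epithelium, were in the medium band. In a bulk sample, fewer cells of a type and less RNA per cell cannot be told apart, and this holds for every value given here.

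Genes of the enamel knot, which is a small part of the germ, had lower signals. Of 14 analysed, 1 was high and 13 were medium, beside 10.6% and 73.1% of all genes. The exception was Bmp7 (10.03 ± 0.24), which is not restricted to the knot. Lef1, the nuclear mediator of WNT signals, had a mean of 9.83 ± 0.31 and Shh, the hedgehog ligand of the knot, 9.25 ± 0.70. Below these were Bmp2 (8.41 ± 0.12), Fgf20 (8.20 ± 0.26), Fgf4 (8.16 ± 0.45), Msx2 (7.64 ± 0.53), the ectodysplasin receptor gene Edar (7.47 ± 0.14), the WNT inhibitor Dkk4 (6.90 ± 0.29) and Slit1 (6.69 ± 0.25). All 14 were above 5 in every pool. Cdkn1a was not analysed here.

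Of 9 genes of the enamel and dentin matrix none was high, beside 10.6% of all genes. A list this short can hold none at that share. At background were 2 of the 9, beside 16.3% of all genes. Amelx and Enam, the enamel proteins amelogenin and enamelin, were at background with means of 4.65 ± 0.26 and 4.995 ± 0.34, and Amtn lay at 5.005 ± 0.14. The enamel proteases Mmp20 (5.22 ± 0.08) and Klk4 (6.39 ± 0.08) and the dentin genes Dmp1 (5.56 ± 0.15) and Dspp (5.95 ± 0.07) were within the range of genes of other organs. Odam, a protein of the ameloblast and junctional epithelium, was the highest of the list at 8.63 ± 0.84, with pools from 6.96 to 9.46. Ambn, the enamel protein ameloblastin, had a mean of 7.93 ± 0.43, with pools from 7.47 to 8.79. Every other gene of the list had a lower mean than these.

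Among signalling families, more receptors than ligands fell in the high band. None of 22 FGF ligands and none of 19 WNT ligands was high, beside 10.6% of all genes. Lists this short can hold none at that share. The highest were Fgf18 (9.54 ± 0.21) and Wnt5a (9.89 ± 0.26), and the lowest Fgf6 (5.90 ± 0.36) and Wnt8b (4.93 ± 0.08). Of 30 ligands of the BMP and TGF-beta families 6 were high, with Bmp4 first, and Bmp10, a ligand of the heart, was lowest (4.39 ± 0.09). Of 33 receptors 12 were high and none was at background. Fgfr1 led them at 11.63 ± 0.14, and Eda2r was lowest at 5.39 ± 0.10. In the hedgehog pathway 6 of 13 genes were high, with the signal transducer Smo at 11.46 ± 0.06 and the ligand Dhh at 5.86 ± 0.20. Rps6ka3, which encodes RSK2, had a mean of 9.99 ± 0.23, at the edge of the high band, with 9.61 in the lowest pool and 10.22 in the highest. Its relatives Rps6ka6 (RSK4) and Rps6ka5 (MSK1) had means of 8.87 ± 0.19 and 7.95 ± 0.14, and the other RSK and MSK genes were not analysed here.

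Of 20 genes of replication and mitosis 17 were high. Ccnd2, a cyclin of the G1 phase, was highest (12.27 ± 0.19) and Ccne2 lowest (8.81 ± 0.22). Of 12 housekeeping genes 9 were high.

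Markers of other cell types were also read, and a signal of the highest marker alone does not show that its cells were present. Of the erythroid list 2 of 8 genes were high, beside 10.6% of all genes. The highest of the list was the embryonic globin gene Hbb-y at 11.65 ± 0.49. Cdh5, the cadherin of endothelium, had a mean of 10.81 ± 0.16. In the bone list Col1a1 (12.001 ± 0.12), which mesenchyme also expresses, was highest, and Ibsp, bone sialoprotein, lay at 10.88 ± 0.75, whereas the late osteocyte gene Mepe was at background (4.13 ± 0.07). Skeletal muscle genes had a median of 7.50, with Actc1 highest (10.59 ± 0.58) and the adult myosin gene Myh1 lowest (5.49 ± 0.12). The complement gene C1qb of macrophages (8.93 ± 0.26), Erbb3 of Schwann cells (9.10 ± 0.17), the neurofilament gene Nefl (8.83 ± 0.50) and Sox9, which cartilage shares with other mesenchyme (9.38 ± 0.35), were the highest of their lists. Neurons, macrophages, glia and cartilage had no gene in the high band, beside 10.6% of all genes. Lists this short can hold none at that share. The medians of the neuron, glia and cartilage lists were 6.77, 6.94 and 6.57, under the median of all genes (7.45), and that of the macrophage list was 7.78. For neurons, glia and cartilage the values therefore leave presence undecided.

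Promoter sequence was set beside the bands as a description. Windows from 250 bases before to 50 bases after the start in RefSeq (GRCm38.p6) were found for 15614 of the 19938 genes (78.3%), some with several starts. Because so many of the genes had no entry, the comparison is void as a check of the bands and holds only for genes with an entry. Median GC content was 63.3% in the high band (2186 windows), 58.7% in the medium band (14308 windows) and 43.0% in the background band (2683 windows). It was 52.7% over all 32841 RefSeq windows. These come from 27018 genes, many outside the ranked set, so the shares of all windows given here are no baseline of the banded genes. The ratio of observed to expected CpG was above 0.6 in 78.8%, 55.1% and 7.04% of windows of the high, medium and background bands. The letters GGGCGG, the GC box, occurred on either strand in 68.2% of high-band windows, 10.6% of background windows and 35.7% of all windows. The TATA box letters TATAAA showed the opposite order, with 7.37%, 29.3% and 13.6%. For CCAAT the shares were 37.4%, 40.5% and 37.4%, close to each other in all bands named. The motif CANNTG was found in 56.4%, 78.1% and 72.3%. Without olfactory and vomeronasal receptors, the remaining 1830 background windows had a median GC content of 46.7%. Genes are not replicates, no test was made, and a match of letters is a description and not a binding site.

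The 150 bases before the start are printed for 5 genes as examples, chosen as the gene of highest signal in its group that has an entry. Capitals mark the GC box, the TATA box and the CCAAT box as spelled above, on either strand. Eef1a1 stands for housekeeping genes (chr9:78481725-78481874, minus strand), Krt5 for dental epithelium (chr15:101712906-101713055, minus strand), Prrx1 for dental mesenchyme (chr1:163313651-163313800, minus strand), Alb for plasma proteins (chr5:90460720-90460869, plus strand) and Asb9 for the background band (chrX:164497753-164497902, plus strand), all in GRCm38.p6.
Eef1a1: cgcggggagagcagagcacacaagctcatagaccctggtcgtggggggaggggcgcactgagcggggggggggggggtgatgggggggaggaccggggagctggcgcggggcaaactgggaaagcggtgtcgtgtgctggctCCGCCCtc
Krt5: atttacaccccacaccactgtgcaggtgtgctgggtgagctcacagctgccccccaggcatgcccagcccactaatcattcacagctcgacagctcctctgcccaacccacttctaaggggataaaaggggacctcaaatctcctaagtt
Prrx1: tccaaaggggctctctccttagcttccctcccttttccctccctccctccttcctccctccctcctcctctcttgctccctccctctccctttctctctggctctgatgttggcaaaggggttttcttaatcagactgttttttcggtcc
Alb: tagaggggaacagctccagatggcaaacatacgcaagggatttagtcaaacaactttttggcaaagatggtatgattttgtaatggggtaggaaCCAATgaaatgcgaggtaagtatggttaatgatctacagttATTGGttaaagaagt
Asb9: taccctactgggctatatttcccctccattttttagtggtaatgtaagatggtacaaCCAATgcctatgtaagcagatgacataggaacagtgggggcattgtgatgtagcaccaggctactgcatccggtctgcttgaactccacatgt
Eef1a1 had 72.7% GC and 11 CpG in these bases. Alb had 38.7% GC and 2 CpG, and Asb9 had 46.0% GC and 1 CpG. The tissue markers Krt5 (55.3%) and Prrx1 (54.7%) lay between them in GC content. Both are high-band genes, yet each had only 1 CpG and no GC box, so they do not show the contrast between the bands. The letters TATAAA were in none of the 5.

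Spread between WT pools was measured after the mean of each series was removed, as an SD with 6 degrees of freedom, over 17086 genes above 5 in at least 1 WT pool. The median of this within-series SD was 0.11 log2 units, 122 genes (0.714%) exceeded 0.5 and 5 exceeded 1. The 50 genes with the largest SD were 0.293% of these genes and ended at Serpinf2 (0.65), and the top 5% (854 genes, SD of 0.24 or more) is used below to count the members of lists. None of the 50 had its mean in the high band. The 50 were ranked on the values described here, so their spread carries no test. In the 8 Rsk2-/Y pools, which the ranking did not use, 18 of the 50 were again among the 50 most variable and 45 were in the top 5% (90% of the 50). Of the 854 genes, 448 (52.5%) were in the top 5% of both genotypes.

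Proteins that the fetal liver and yolk sac secrete into blood led the order. Serpina6, which carries corticosteroids, had the largest SD (2.31), with 5.01, 7.28, 10.77 and 5.14 in ABH_11A, ABH_12A, ABH_13A and ABH_25A and 9.26, 8.84, 6.40 and 5.42 in AZN_MolairesWT1, AZN_MolairesWT2, AZN_MolairesWT3 and AZN_MolairesWT. The lowest of these lay at the background limit, so no fold between the extremes is given. Alb, serum albumin, ran from 6.77 in ABH_25A to 11.95 in ABH_13A with a median of 8.75 (SD 2.01), and Afp, alpha-fetoprotein, from 5.24 to 9.70 with a median of 6.49 (SD 1.71). In each of these 3 genes ABH_13A was highest and the AZN_MolairesWT1 and AZN_MolairesWT2 pools came next.

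The same order held for many more. Ahsg, Apoa1, Ttr, Rbp4, Itih2, Kng1 and Ambp, all plasma proteins, had SDs between 0.84 (Ambp) and 1.33 (Ahsg) and were highest in ABH_13A. The membrane proteins of red cells Rhag (4.28 to 7.01, SD 0.96) and Kel (5.66 to 8.17, SD 0.85) followed it too. Of the 50 genes 27 were highest in ABH_13A, and in 26 of these the next pool was AZN_MolairesWT1 or AZN_MolairesWT2. The count asks for either pool and not for both. It also holds genes such as Otor and E330013P04Rik, whose other pools lay close together (5.61 to 6.06 and 5.23 to 5.84), so that their next pool means little. Of the plasma protein list 9 of 11 genes were in the top 5%, against 5% of all genes, and 7 were among the 50 (Alb, Afp, Ahsg, Apoa1, Ttr, Fgb and Fgg). Fgg lay at 4.44 in ABH_25A, under the background limit, so the fold of the list takes in background signal. The mean of the list ran from 5.87 in ABH_25A to 8.15 in ABH_13A, a 4.87-fold range. Without ABH_13A 4 of its genes were among the 50, and Serpina6, Alb and Afp again came first.

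Genes of red cells varied less. Of the erythroid list 6 of 8 genes were in the top 5% and 2 among the 50, Slc4a1 (7.82 to 10.09, SD 0.81), the anion exchanger of the red cell membrane, and Epb42. The list mean ran from 7.49 in ABH_25A to 8.58 in ABH_13A, a 2.12-fold range. Hbb-y, a globin of primitive red cells, was highest in AZN_MolairesWT1, and in all 4 of the erythroid genes that were not highest in ABH_13A that pool was the highest. Without ABH_13A no gene of the list was among the 50. In Rsk2-/Y pools the plasma protein list lay between 5.74 and 5.92 in 5 pools and at 7.83, 7.94 and 8.36 in AZN_MolairesMutant1, ABH_15A and AZN_MolairesMutant4. Whether blood or another tissue in the dissected pieces carried these transcripts was not tested.

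**Figure D2:**
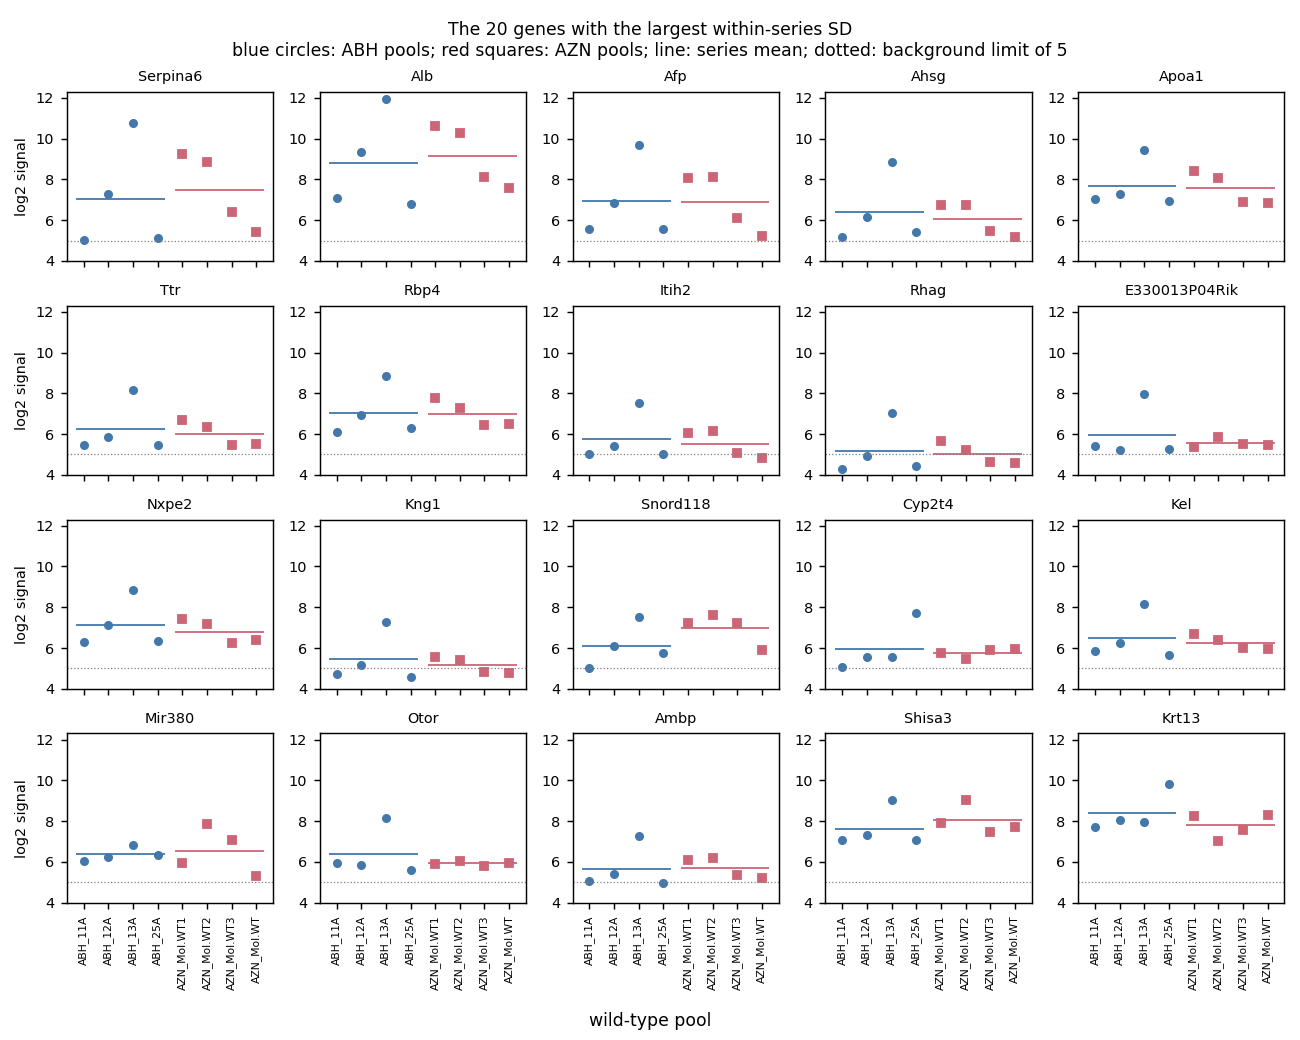
Log2 signal (y axis) in each of the 8 WT pools (x axis) for the 20 genes with the largest within-series SD, with ABH pools as blue circles, AZN pools as red squares, series means as lines and the background limit as a dotted line. Plasma protein genes from Serpina6 to Ambp and the red cell genes Rhag and Kel are highest in ABH_13A, whereas Cyp2t4 and Krt13 are highest in ABH_25A and Mir380 in AZN_MolairesWT2.

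Some genes that are in none of these lists were also highest in ABH_13A. E330013P04Rik lay at 7.94 in ABH_13A and between 5.23 and 5.84 in the other 7 pools, and Otor, a secreted protein known from the inner ear and cartilage, at 8.16 against 5.61 to 6.06. In Rsk2-/Y pools Otor lay between 5.85 and 6.06, whereas E330013P04Rik reached 6.79 in AZN_MolairesMutant3. Shisa3, an inhibitor of WNT and FGF receptors, was at 9.04 in both ABH_13A and AZN_MolairesWT2 and between 7.06 and 7.93 elsewhere. Nxpe2 ran from 6.25 to 8.82 and was highest in ABH_13A, and it reached 8.59 in the Rsk2-/Y pool AZN_MolairesMutant4. The homeobox genes Emx2 (5.28 to 7.51) and Alx4 (6.60 to 8.70), named here after their values were seen, were also highest in ABH_13A. Among Rsk2-/Y pools both were highest in AZN_MolairesMutant3, at 6.99 for Emx2 and 7.98 for Alx4.

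A different set was raised in ABH_25A. Krt13, a keratin of the upper layers of oral mucosa, lay at 9.82 in ABH_25A and between 7.05 and 8.28 in the others, and the cytochrome Cyp2t4 at 7.71 against 5.06 to 5.94. Krt4, the partner of Krt13, was at 8.17 there and at 6.18 to 6.91 elsewhere, and the collagenase Mmp13 at 7.81 against 5.80 to 6.46 (both chosen after their values were seen). The list of surface epithelial genes had 7 of 14 members highest in ABH_25A and 5 of 14 in the top 5%. Its mean was 7.10 in ABH_25A and ran from 6.34 in AZN_MolairesWT2 upward in the others. None of the 14 was in the high band, beside 10.6% of all genes, and a list this short can hold none at that share. In the 8 Rsk2-/Y pools the list mean lay between 6.22 and 6.45.

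Skeletal muscle genes varied together and in another order. Of 31 genes 24 (77.4%) were in the top 5%, against 5% of all genes, and 28 of 31 were highest in AZN_MolairesWT2. In ABH_13A 21 of the 31 were lowest. Myl1, a light chain of fast muscle myosin, had the largest SD of the list (0.67), with 9.77, 9.19, 9.11 and 10.49 in the ABH pools in the order above and 9.19, 10.56, 9.03 and 9.44 in the AZN pools. It was therefore high in ABH_25A and AZN_MolairesWT2 and between 9.03 and 9.77 in the other 6 pools. Actc1, cardiac actin, which embryonic skeletal muscle also uses, ran from 9.68 to 11.48. The list mean was 7.17 in ABH_13A, 7.86 in ABH_25A and 8.42 in AZN_MolairesWT2, a 2.39-fold range. In the Rsk2-/Y pools it ran from 7.09 to 9.27. Between 19 and 24 of the 31 genes were in the top 5% when 1 pool was left out.

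The pool highest in muscle was lowest in epithelium. Of 20 dental epithelium genes 16 were lowest in AZN_MolairesWT2, and so were 12 of 14 enamel knot genes. The epithelial list had a mean of 9.73 in this pool and lay between 10.17 and 10.46 in the other 7. For the enamel knot list the values were 7.58 and 7.97 to 8.42. Shh had 9.79, 9.63, 9.96 and 9.66 in the ABH pools and 8.67, 7.83, 9.14 and 9.30 in the AZN pools, a 4.37-fold range with AZN_MolairesWT2 lowest. Foxi3 had 10.80, 10.73, 10.81 and 10.98 in the ABH pools and 9.79, 8.64, 10.23 and 10.36 in the AZN pools (SD 0.56). Sp6, the transcription factor epiprofin of dental epithelium, had the largest SD of the enamel knot list (0.50) and ran from 6.87 in AZN_MolairesWT2 to 8.60 in ABH_13A. For these 3 genes the ABH pools lay close together and AZN_MolairesWT2 lay below all others.

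Of the enamel knot list 7 of 14 genes, and of the epithelial list 9 of 20, were in the top 5%. Within the ABH pools alone these counts were 2 and 1, and without AZN_MolairesWT2 the epithelial count was 2. The spread of the epithelial genes therefore rests largely on 1 pool. Among Rsk2-/Y pools AZN_MolairesMutant3 had the lowest epithelial mean (9.62), the lowest enamel knot mean (7.63) and the highest muscle mean (9.27). How much of each tissue the dissections held was not measured.

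Mesenchymal genes followed another order. Of 21 genes 12 were lowest in AZN_MolairesWT1, where 9 of 20 epithelial genes were highest. The list mean ran only from 10.01 in AZN_MolairesWT1 to 10.44 in ABH_12A, and 3 of 21 genes were in the top 5%. The steadiest were Pdgfra (SD 0.05), Sdc1 (0.06) and Dlx1 (0.07), and the largest SDs were those of Fgf3 (0.33) and Dlx2 (0.28). None of 20 cell cycle and none of 12 housekeeping genes was in the top 5%, and lists this short can hold none at a share of 5%. Eef1a1 and Actb each had an SD of 0.03 log2 units.

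**Figure D3:**
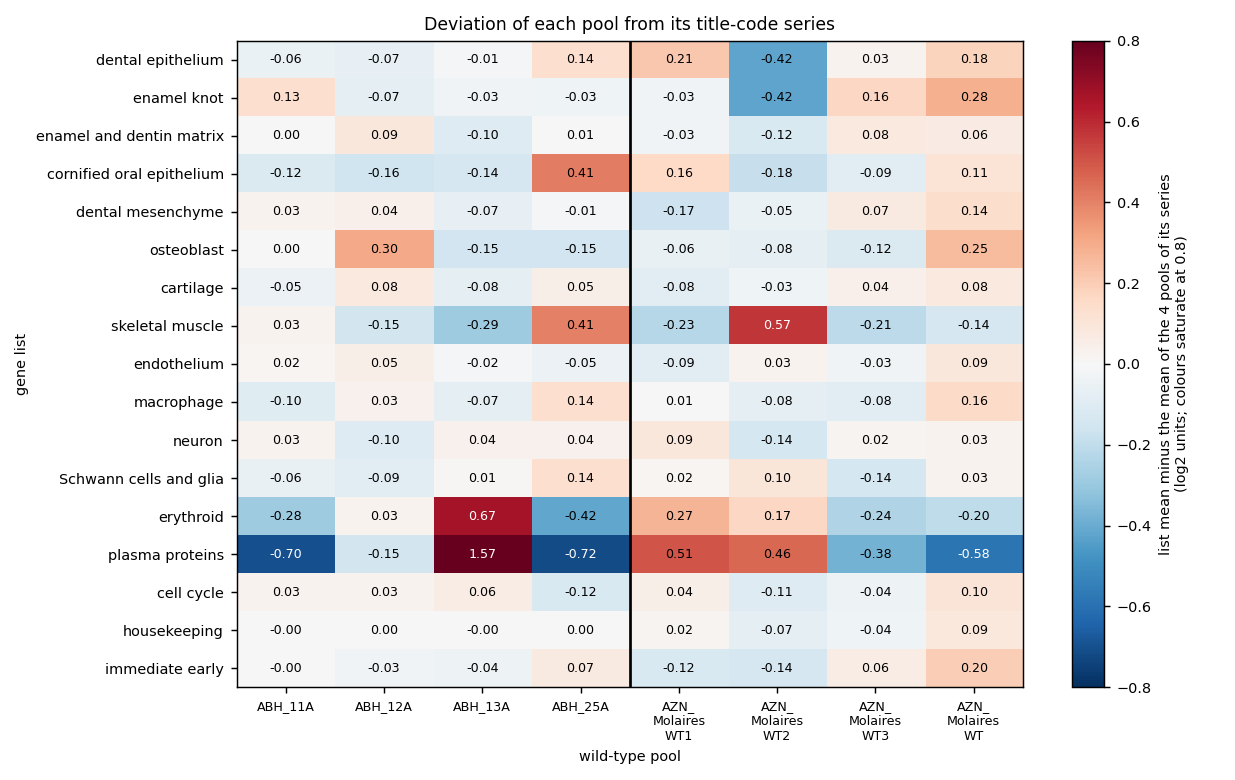
Mean of each gene list in each WT pool minus the mean of the 4 pools of its series (log2 units, printed and coloured, red above and blue below; ABH pools left of the line, AZN pools right). Plasma protein genes reach 1.57 above the series mean in ABH_13A, and in AZN_MolairesWT2 muscle is 0.57 above while dental epithelium and enamel knot are each 0.42 below.

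**Figure D4:**
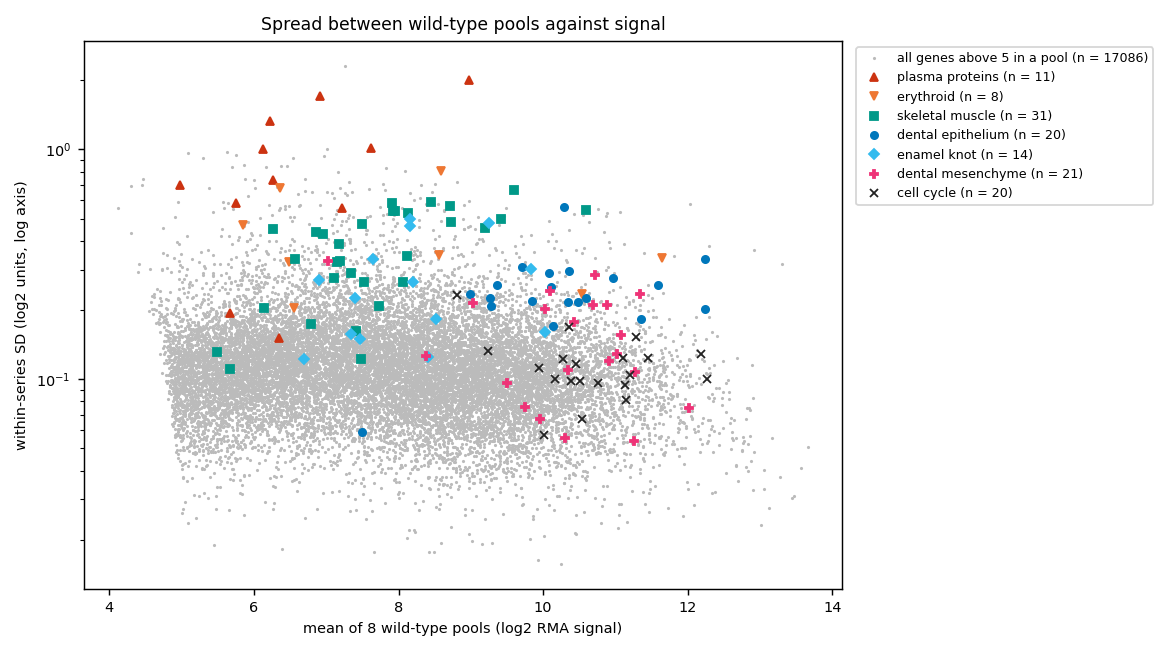
Within-series SD of 17086 genes (y axis, log scale) against their mean log2 signal in 8 WT pools (x axis), 1 point per gene, with 7 gene lists marked. Most plasma protein, erythroid and muscle genes lie above the bulk of the grey points, whereas cell cycle genes lie among them.

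Small RNAs formed the last variable group. Of 186 microRNA genes above 5 in a pool 73 (39.2%), and of 49 small nucleolar RNA genes 39 (79.6%), were in the top 5%. Both families had their lowest mean in AZN_MolairesWT and their highest in AZN_MolairesWT2, with 6.12 and 6.69 for microRNA genes and 7.71 and 8.74 for small nucleolar RNA genes. These pools also had the lowest (6.74) and highest (6.92) median of the whole array. Whether the shift of the array enters the order of the families was not tested. The most variable members of the families were Snord118, the U8 RNA of ribosome maturation (5.04 to 7.61, SD 0.91), and Mir380 (5.29 to 7.86, SD 0.84). MicroRNA and small nucleolar RNA genes are short, but the families were taken by symbol, and that of microRNAs also holds the host gene Mir100hg (10.56). Array signals do not tell a mature microRNA from its precursor or host transcript. The counts of both families among the 50 moved with the pools used, from 1 in the ABH pools alone to 21 in the AZN pools alone, beside 6 over both.

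Among the 50 were 5 microRNA genes. Their mature sequences from RefSeq (GRCm38.p6) are printed 5′ to 3′ with the seed, bases 2 to 8, in capitals, to show that they do not form a seed family. Mir300, Mir15a, Mirlet7c-1 and Mir99a were named after their values were seen.
mmu-miR-380-5p: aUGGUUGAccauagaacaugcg
mmu-miR-380-3p: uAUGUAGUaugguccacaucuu
mmu-miR-300-5p: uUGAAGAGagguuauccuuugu
mmu-miR-300-3p: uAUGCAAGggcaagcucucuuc
mmu-miR-15a-5p: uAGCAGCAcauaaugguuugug
mmu-miR-15a-3p: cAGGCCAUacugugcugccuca
mmu-let-7c-5p: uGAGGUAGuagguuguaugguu
mmu-let-7c-1-3p: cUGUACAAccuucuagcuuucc
mmu-miR-99a-5p: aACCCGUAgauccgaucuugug
mmu-miR-99a-3p: cAAGCUCGuuucuaugggucu
No seed was shared between them. Mir380 and Mir300 lie on the plus strand of chromosome 12 (miR-380-5p at chr12:109711806-109711827, miR-300-5p at chr12:109724318-109724339), in the large microRNA cluster of the imprinted Dlk1-Dio3 region. Mirlet7c-1 and Mir99a are neighbours on chromosome 16 (let-7c-5p at chr16:77599672-77599693, miR-99a-5p at chr16:77598940-77598961), and Mir15a lies on chromosome 14 (miR-15a-5p at chr14:61632075-61632096, minus strand).

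Position was shared more than seed. Of 57 microRNA hairpins within 500 kb of Mir380, a window set after Mir380 and Mir300 had been seen, 39 were represented by a single-symbol probe set and 29 were above 5 in a pool. Of these 29, 26 were in the top 5% (89.7%), beside 39.2% of all microRNA genes, which include them. Mir379, Mir543, Mir539, Mir496a and Mir541, all counted in the 26, had means under 5. They passed the filter only through the pools where they were higher, which favours spread, so the share is a description. In 23 of the 29 AZN_MolairesWT was the lowest pool. Their mean was 6.65, 6.89, 7.02 and 6.97 in the ABH pools and 6.51, 7.28, 7.08 and 6.18 in the AZN pools. Mir380 itself had 6.03, 6.27, 6.83 and 6.36 in the ABH pools and 5.97, 7.86, 7.09 and 5.29 in the AZN pools. Rian, the noncoding transcript of the same region, named after its values were seen, ran from 6.35 in AZN_MolairesWT to 8.43 in AZN_MolairesWT2. Members of a cluster that share a transcript are not independent of each other.

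Removing the series mean took out differences that were themselves large. Over the 17086 genes, a limma fit of the 4 AZN against the 4 ABH WT pools gave 759 genes higher in AZN (4.44%) and 1606 lower (9.4%) at a Benjamini-Hochberg false discovery rate under 0.1 and a change of more than 1.2-fold. Of these 2365 genes, 46 differed by more than 2-fold, and the median size was 0.36 log2 units. In the Rsk2-/Y pools, which were not in the fit, 2314 of the 2365 (97.8%) differed in the same direction, beside 76.8% of all genes. What distinguishes the series was not stated, so date, embryos and handling cannot be told apart.

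Several tooth genes were lower in AZN. Inhba had 11.52, 11.47, 11.25 and 11.43 in the ABH pools and 10.03, 10.35, 10.34 and 10.70 in the AZN pools, a difference of -1.07 ± 0.12 (SE, limma adjusted p = 0.00166). Odam differed by -1.26 ± 0.29 (limma adjusted p = 0.0202) and Shh by -1.02 ± 0.26 (limma adjusted p = 0.0275). Foxi3 differed by -1.08 ± 0.30 (limma adjusted p = 0.0387), and by -0.70 without AZN_MolairesWT2 (limma adjusted p = 0.0112). Without that pool the differences of Odam and Shh were -0.91 and -0.72. Gli1, a target of hedgehog signalling, differed by -0.68 ± 0.07 (limma adjusted p = 0.00151). These 5 genes were picked from the tooth lists after their values were seen. In all, 4 of 14 enamel knot genes, 6 of 20 epithelial genes and 6 of 21 mesenchymal genes were lower in AZN, and Krt15 and Twist1 were the only members of these 3 lists that were higher, against 9.4% and 4.44% of all genes.

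The largest differences lay elsewhere. Mir205, a microRNA of epithelia (gene on the minus strand of chromosome 1), differed by -1.86 ± 0.18 (limma adjusted p = 0.00137) and lay between 7.42 and 7.92 in ABH and between 5.42 and 6.30 in AZN. Its main arm is printed because no other gene was as much lower in AZN.
mmu-miR-205-5p: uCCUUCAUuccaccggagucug
The phospholipid phosphatase-related gene Plppr5 (-1.33), the histone gene H3c15 (-1.26), the calcium sensor Kcnip3 (-1.26), the vesicle-sorting gene Vps33b (-1.24) and Mir568 (-1.21) followed with Odam. Mir301 lay between 5.37 and 5.79 in ABH and under the background limit in all AZN pools (3.99 to 4.46), so it is given no difference. Higher in AZN were the Y RNA Rny1 (1.32), Snora3 (1.28), the U3 RNA Rnu3a (1.10), Ibsp (1.07), Phxr4 (1.04) and Snord53 (1.03). Of these, 4 are small noncoding RNAs. Bpifb9b and the lens crystallin gene Crygd, which the fit also called, were under the background limit in all 4 ABH pools (3.58 to 3.94 and 3.70 to 4.04) and above it in AZN_MolairesWT1 (6.24 and 6.17) and AZN_MolairesWT2 (5.77 and 5.37) only, so they too are given no difference. In the Rsk2-/Y pools the difference between series was 0.01 for Phxr4, whereas it was 1.65 for Rny1 and -1.40 for Mir205.

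Of 31 muscle genes 8 were higher in AZN and none lower, beside 4.44% and 9.4% of all genes. Myod1, the regulator of myoblasts, was among the 8 (0.57 ± 0.15, limma adjusted p = 0.0300). Of 8 erythroid genes 3 were higher, the embryonic globins Hba-x, Hbb-y and Hbb-bh1. None of the 11 plasma protein genes passed the test, where 13.8% of all genes did, and a list this short can hold none at that share. Rps6ka3 was lower in AZN by 0.36 ± 0.09 (limma adjusted p = 0.0278), with 10.08 to 10.22 in the ABH pools and 9.61 to 10.003 in the AZN pools. Its place just under the high band thus depends on series, with means of 10.17 in ABH and 9.81 in AZN. For the tooth lists the bands moved little, with 13 epithelial genes high in the ABH pools and 11 in the AZN pools, and 15 and 13 mesenchymal genes.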

How the data were processed

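Labelled cDNA from total RNA (150 ng per the labels; the study's methods state a larger input) was hybridised to Affymetrix whole-transcript arrays. The log2 values were deposited by the authors after RMA in Affymetrix Expression Console 1.3.1.187. The methods' filter, above 5 in at least 1 sample, was applied here to the WT pools, with no other transformation.

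Probe sets were named from the platform annotation: 21789 had 1 symbol, 1621 several and 12146 none; only the first were ranked, and for counts of genes the probe set with the highest mean was kept. Samples were grouped by the genotype label and split by title code. No test between genotypes was run. AZN against ABH was tested with limma 3.58.1 in R 4.3.3 on 4 against 4 WT pools, with scripts in Python 3.11.15, and scripts were tested on simulated data. Array precision is limited by 8 pools. The labels do not say whether pools are separate litters, so whether the pools are independent is not known. The p-values set the difference between series against the spread of these pools within series.

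Members, lists and rules were chosen with earlier results of these data known. Named genes were the 10 of highest mean, the 20 of largest within-series SD, the extremes of each list, any tooth gene, RSK, MSK and sex-linked genes, the 8 largest series differences each way, genes at the band limits, and printed promoters; others are marked. For the other lists the genes in the top 5% by SD were: endothelium 0 of 11, macrophages 1 of 13, cartilage 1 of 14, Schwann cells and glia 1 of 7, signal receptors 1 of 33, genes of other organs 1 of 13, immediate early genes 2 of 9, neurons 5 of 11, osteoblasts 3 of 7, BMP and TGF-beta ligands 2 of 29, WNT ligands 3 of 19, FGF ligands 5 of 22, hedgehog genes 3 of 13, enamel and dentin matrix 3 of 9, RSK and MSK 0 of 3 and sex-linked genes 2 of 4. Alternatives varied the limits, probe set choice, centring, spread measure, signal filter, limma settings and pools.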

Additional observations from a re-analysis of the deposited data

Results flagged for a closer look

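Each list mean and each of the 20 most variable genes was examined for a pool far from the other 7, as its gap to the nearest pool divided by the whole range, against Dixon's limit for 8 values. The 2 series were not separated for this. Chance alone passes this limit for about 1 group in 20 that was not chosen for its spread. The lists were chosen with earlier results of these data known, and some share genes, so this rate is no measure for them either. Of 25 list means 3 passed. The dental epithelium list was low in AZN_MolairesWT2 (0.610), the surface epithelium list was high in ABH_25A (0.548) and the BMP and TGF-beta ligand list was low in AZN_MolairesWT1 (0.528), where its mean was 7.50 and the other 7 pools lay between 7.59 and 7.68.

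The 20 genes had been ranked by spread in the same pools, which favours a far pool, so that chance rate does not apply to them and their ratios are a description. Of these, 9 were past the limit. High in ABH_13A were 7 genes, with ratios of 0.572 for Ahsg, 0.550 for Ttr, 0.774 for E330013P04Rik, 0.543 for Nxpe2, 0.639 for Kng1, 0.593 for Kel and 0.824 for Otor. In ABH_25A Cyp2t4 (0.665) and Krt13 (0.557) were high. Serpina6, Alb and Afp, with the largest spread of all, were not past it.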

How the results depend on the processing

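Counts in the bands followed their limits. The high band held 5568 probe sets with a limit of 9, 853 with a limit of 11 and 3842 when probe sets with no or several symbols were included, and 2456 to 2503 when 1 pool was left out. The background band held 6350 with a limit of 6, 8085 over all probe sets and 3510 to 3543 with 1 pool left out. The 50 most variable genes were less stable: 32 of them remained with the series mean kept, 25 by median absolute deviation, 20 among genes with a mean of 7 or more, 21 in the AZN pools alone, 27 without both ABH_13A and AZN_MolairesWT2, and 27 to 48 with 1 pool left out, 27 without ABH_13A. In those settings, in the same order where they differed from the count reported, muscle genes among the 50 (1 as reported) numbered 0, 0 and 7, with 2 on the linear scale, 0 in the ABH pools and 0 to 4 with 1 pool left out. Plasma protein genes (7) numbered 3 with a mean of 7 or more, 4 in the AZN pools and 4 to 8 with 1 pool left out. Erythroid genes (2) numbered 1 with the series mean kept, 1 with a mean of 7 or more, 0 in the AZN pools and 0 to 2 with 1 pool left out. MicroRNA and small nucleolar RNA genes (6) numbered 11, 17, 11, 1 in ABH, 21 in AZN and 2 to 17, with 17 without ABH_13A. In the top 5%, enamel knot genes (7) numbered 2 in the ABH pools and 6 to 8 with 1 pool left out, dental epithelium genes (9) 1 in the ABH pools and 2 to 12, muscle genes 19 to 24, plasma protein genes 6 to 9 and erythroid genes 5 to 7. Genes higher in AZN numbered 1453 with no minimum fold and 635 to 864 with 1 pool left out, and genes lower in AZN 1313 to 2035. The cause of these shifts was not tested. An equal-variance test, which the study's methods name in general and not for the arrays, called, after Benjamini-Hochberg adjustment, 535 genes higher and 1151 lower. Of the 16 genes named for the series difference none reversed, while Crygd, Rnu3a and Phxr4 each missed the threshold in 7 of 13 alternatives. No paired analysis was possible because no test between genotypes was made and the title codes give the series no shared replicate numbers.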
